A study of Mus musculus with 23 samples.

Results

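The 10 mouse Frizzled receptor genes, Fzd1 to Fzd10, were described in mammary tumors of PyMT mice, in which the polyoma virus middle T oncoprotein, under the mammary tumor virus promoter, drives tumor growth from the mammary epithelium. The members were found by gene symbol among the 47643 Ensembl gene identifiers of the count tables, and all 10 were present. The family was chosen by a result in these data, because Fzd5 was higher in tumors of IL-38 knockout (KO) than of wild-type (WT) mice and lower after blockade of the γδ T-cell receptor (TCR). The Fzd5 values in those comparisons are therefore given as a description, with no test. The other 9 genes came in by family name.

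The series held 23 libraries of bulk RNA from dissociated tumors of female mice on a C57BL/6 background, in 5 groups. In the neutralization experiment, PyMT WT mice received an isotype control IgG (5 libraries) or an antibody against IL-38 (6 libraries) at 100 µg, with the first injection at a leading tumor diameter of 0.6 cm. In the γδ TCR experiment, PyMT WT mice received IgG (4 libraries), and PyMT IL-38 KO mice received IgG (4 libraries) or an antibody against the γδ TCR (4 libraries, 500 µg and then 200 µg), starting at 13 weeks of age. All mice carried the PyMT transgene and were injected 1 time per week for 5 weeks. There was no WT group with γδ TCR blockade. The numbers given to libraries do not tie them to litters or tumors, and p-values measure the spread between these libraries.

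Frizzled proteins are receptors with 7 membrane-spanning segments whose outer cysteine-rich domain binds the lipid-modified Wnt ligands. With the co-receptors Lrp5 and Lrp6 they carry the signal that stabilizes β-catenin, and with Ror, Ryk or Ptk7 they serve β-catenin-independent branches that control cell polarity and movement. The membrane ubiquitin ligases Rnf43 and Znrf3 remove Frizzled proteins from the cell surface, and R-spondins acting through Lgr receptors restrain that removal. In the mammary gland, Wnt signaling is known for its part in duct branching and in the maintenance of basal stem cells.

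A few properties of the libraries touch every result. Total reads per library ran from 6273049 to 15879164. The 4 blockade libraries and KO IgG replicate 4 stood apart, with 6273049 to 8794202 reads, with 1.31% to 1.98% of reads on processed pseudogenes (0.0943% to 0.191% in the other 18 libraries) and with 11.3% to 20.1% of reads on Gm42418, an RNA that overlaps ribosomal RNA sequence (2.62% to 5.70% in the others). Il1f10, which encodes IL-38, had 0 reads in all 23 libraries, which allows up to 0.189 to 0.478 CPM (reads scaled to a common library total) by counting error, so the genotype labels could not be checked on the deleted gene. The luminal epithelial marker list was abundant in each group of the table of 19 libraries, with a summed normalized count of 24591 to 61032 per library. A normalized count is the number of reads divided by 1 size factor per library. The table of 19 libraries (all groups but the blockade) and the table of 8 libraries (both KO groups) were scaled apart, so that KO IgG has values in both, from the same reads. Differences below are on the log2(normalized count + 1) scale, which understates changes of low genes. In bulk tissue, fewer cells that use a gene and less RNA per cell cannot be told apart.

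Fzd5, a receptor known for its roles in the vasculature of yolk sac and placenta and in Paneth cell maturation, was highest in the KO IgG group. In WT IgG tumors its normalized counts were 160.3, 156, 182 and 167, and in KO IgG tumors they were 293, 438, 487 and 424. Every KO library lay above every WT library. The means were 166 ± 11.1 and 411 ± 83.0 (SD, n = 4 each), a ratio of 2.47 and a log2 difference of 1.28 (SE 0.18).

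In the table of 8 libraries, the same KO IgG tumors had 219.8, 332, 376 and 332, and the KO tumors with γδ TCR blockade had 127, 130.5, 128 and 168. The groups did not overlap in this comparison either. The mean fell from 315 ± 66.9 to 139 ± 19.9 (SD, n = 4 each), a ratio of 0.440 and a log2 difference of -1.16 (SE 0.20). The 2 comparisons share the 4 KO IgG tumors, and a high level there enters both with opposite sign. Without KO IgG replicate 4, the Fzd5 difference was 1.25 for KO against WT and -1.13 for blockade against KO. That blockade fit leaves no KO IgG library with the pseudogene and Gm42418 shares of the blockade libraries, so blockade and those shares cannot be told apart. Over all single libraries left out, the Fzd5 difference stayed between 1.19 and 1.43 for KO and between -1.33 and -1.07 for blockade.

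The neutralization experiment played no part in the choice of Fzd5 and gives it a test. In the isotype group Fzd5 had 231, 187, 208, 138 and 309.7 normalized counts. In the 6 anti-IL-38 libraries the lowest was 163, the median 284 and the highest 698. The groups overlapped, with 2 of the 6 treated libraries above every isotype library and 4 above the isotype median. The log2 difference was 0.47 (SE 0.34, 95% interval -0.26 to 1.19), and it passed neither the test across all genes (limma, adjusted p = 0.619) nor the exact permutation test on Fzd5 alone (two-sided p = 0.279, over 462 groupings). Replicate 3 of the anti-IL-38 group carried much of it, and without that library the difference was 0.21. The effect of the antibody minus the effect of the knockout was -0.81 for Fzd5 (SE 0.44), given without a test because the knockout difference chose the gene.

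To place the 5 groups side by side, reads were also scaled to a common total per library. On this CPM scale the Fzd5 means, in rising order, were 13.5 ± 2.70 in KO with blockade, 14.2 ± 1.09 in WT IgG, 17 ± 4.9 in isotype, 24.6 ± 13.1 in anti-IL-38 and 34.5 ± 6.86 in KO IgG (SD, n = 4, 4, 5, 6 and 4). Each neighbouring pair in this order overlapped. KO IgG, at 24.8 to 40.6, lay above all libraries of the 3 lowest groups, which reached 24.2. The share of Gm42418 lowers every CPM value in the blockade libraries, and its part in the order was not tested.

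**Figure D1:**
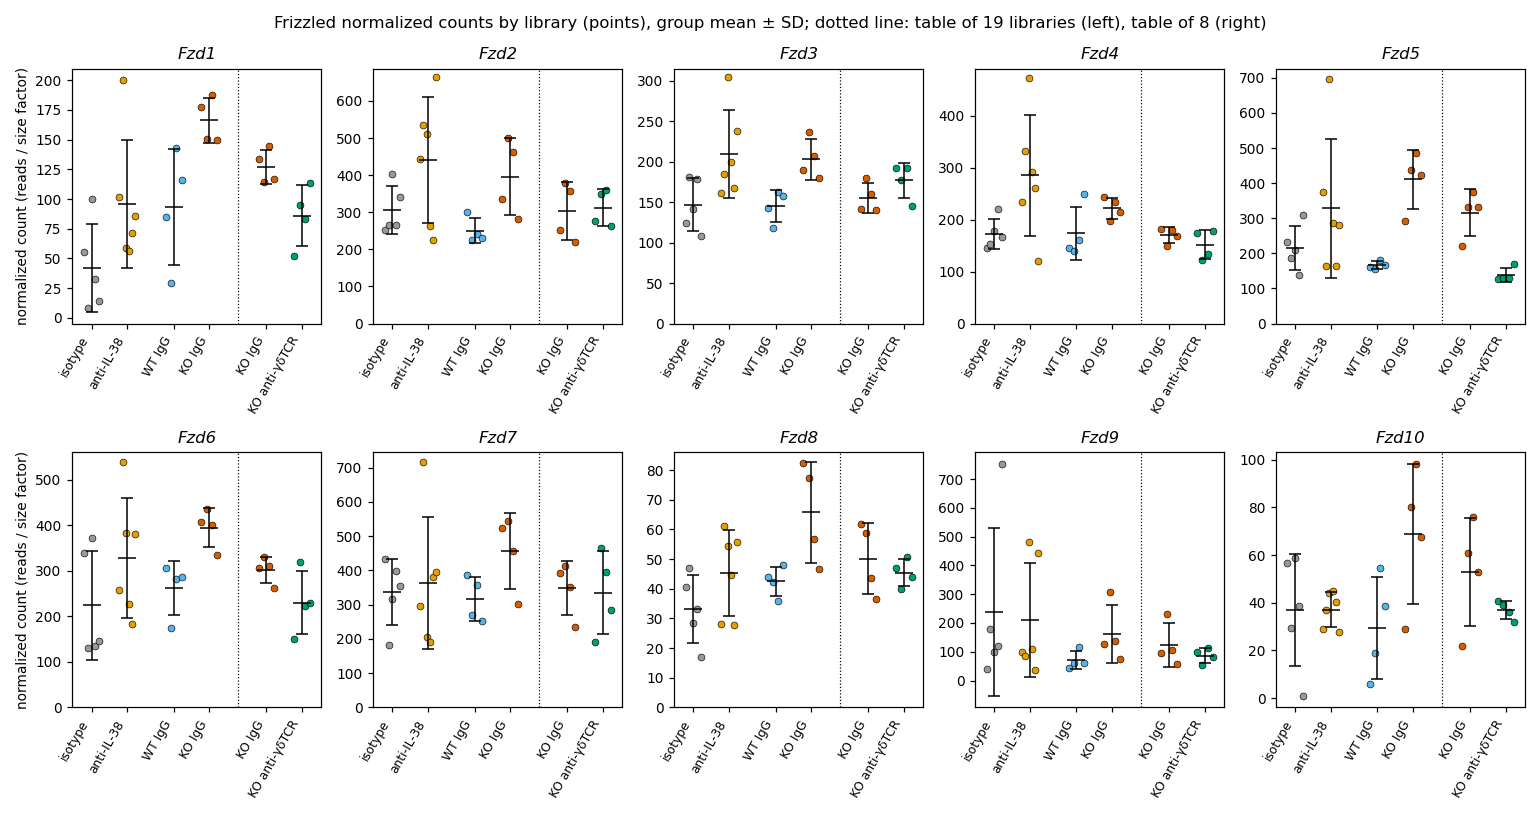
Normalized counts (reads divided by the size factor) of the 10 Frizzled genes in each library (points), with the mean ± SD per group (black), in the table of 19 libraries left of the dotted line and the table of 8 libraries right of it. Fzd5 lies at 293 to 487 in KO IgG against 156 to 182 in WT IgG, and at 127 to 168 after blockade; Fzd9 and Fzd10 spread most between libraries of a group.

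Fzd1 was the other gene of the family whose groups were apart in both comparisons of the γδ TCR experiment, as were 0.794% of the 15990 genes tested in both, which share the KO IgG tumors. It had 84.7, 29.2, 143 and 116 normalized counts in WT IgG and 178, 150.3, 187 and 149 in KO IgG, a log2 difference of 1.03 (SE 0.40, limma adjusted p = 0.351). In the table of 8 libraries, it had 133, 114, 145 and 117 in KO IgG and 52.3, 95, 83.2 and 113 after blockade. The highest blockade library stood just under the lowest KO IgG library, and the log2 difference of -0.61 (SE 0.25) had an adjusted p of 0.190. Neither difference passed the test across all genes.

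The promoters of Fzd5 and Fzd1 are printed because these genes were the members with both separations. RefSeq promoter sequences (250 bases before to 50 after the annotated start, build GRCm38.p6, not the GRCm39 of the read counts) were at hand for 6 of the 10 members, Fzd1, Fzd4, Fzd5, Fzd7, Fzd9 and Fzd10. Capitals mark the GC box GGGCGG, the CCAAT box CCAAT and the TATA box TATAAA, on either strand.
Fzd5, chr1:64737701-64738000, minus strand: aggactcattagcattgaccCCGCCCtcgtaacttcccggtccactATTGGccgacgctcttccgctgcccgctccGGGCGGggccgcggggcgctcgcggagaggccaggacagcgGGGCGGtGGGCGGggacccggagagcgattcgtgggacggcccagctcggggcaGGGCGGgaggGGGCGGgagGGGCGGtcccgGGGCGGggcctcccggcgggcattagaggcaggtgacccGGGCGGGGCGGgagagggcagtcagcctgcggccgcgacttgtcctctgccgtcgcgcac
Fzd1, chr5:4758167-4758466, minus strand: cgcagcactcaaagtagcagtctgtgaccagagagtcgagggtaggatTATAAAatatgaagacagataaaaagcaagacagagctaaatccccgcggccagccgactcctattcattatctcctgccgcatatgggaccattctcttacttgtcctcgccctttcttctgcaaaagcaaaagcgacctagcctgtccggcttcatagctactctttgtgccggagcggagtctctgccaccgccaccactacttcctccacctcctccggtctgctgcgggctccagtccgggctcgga

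The 2 windows share little of this. The Fzd5 window had 75.7% G and C, 10 GC boxes (2 of them overlap by 1 base), 1 CCAAT box and no TATA box. The Fzd1 window had 54% G and C, no GC box, no CCAAT box and 1 TATA box. Of all 32851 promoter windows of this length, 35.7% held a GC box, 37.4% a CCAAT box and 13.6% a TATA box, and 99.9% had fewer GC boxes than Fzd5. Fzd4 had 8 GC boxes and Fzd7 had 7, whereas Fzd9 and Fzd10 had 1 each. The TCF/LEF letters ATCAAAG, in 3.73% of all windows, were in none of the 6, and neither were the AP-1 letters TGACTCA, in 5.2% of all windows. These are matches of letters and say nothing about binding.

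All 10 family members were higher in KO than in WT tumors. Without Fzd5, 9 of 9 were higher, with a median log2 difference of 0.61 (range 0.39 to 1.44), against a median of 0.01 over all 16563 genes tested. None of the 9 passed the test across all genes (limma, adjusted p from 0.285 to 0.457). At an unadjusted p under 0.05, 8 of the 9 were higher, all but Fzd4, where 6.73% of all genes were. limma called 0.00604% of all genes, that is 1 gene (2010 at an unadjusted p under 0.05), the pseudogene Gm10093. edgeR called 0 and DESeq2 305 genes, none of them one of the 9. The number of the 9 at an unadjusted p under 0.05 was 7 without KO IgG replicate 4. It fell to 5 without WT IgG replicate 1, KO IgG replicate 1 or KO IgG replicate 3, to 4 without WT IgG replicate 2 and to 3 without KO IgG replicate 2. The direction of all 10 held in each of the 16 alternatives computed.

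The closest relatives of Fzd1 by sequence are Fzd2 and Fzd7. Fzd2, a receptor for Wnt5a, had 299.8, 226, 243 and 231 normalized counts in WT IgG and 335, 501, 464 and 282 in KO IgG. The lowest KO library fell below the highest WT library, and the log2 difference was 0.63 (SE 0.20). Fzd7, known for its part in stem cells of gut and breast, had 385, 269, 356 and 254 in WT and 524, 546, 457 and 302 in KO. Its KO replicate 4 lay within the WT range, and the log2 difference was 0.52 (SE 0.22).

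Fzd3 and Fzd6, the pair known for planar cell polarity (axon tracts and hair orientation), separated the groups. Fzd3 had 142, 118, 163 and 157 in WT IgG and 189, 237, 207 and 179 in KO IgG (log2 difference 0.48, SE 0.17). Fzd6 had 307, 175, 283 and 285 in WT and 407, 436, 401 and 336 in KO (log2 difference 0.61, SE 0.19). With Fzd1, 3 of the 9 genes had every KO library above every WT library, where 3.66% of all genes did.

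Fzd8, the nearest relative of Fzd5, was measured with few reads (18 to 88 per library). It had 43.8, 42.4, 35.8 and 47.9 normalized counts in WT IgG and 82.3, 77.4, 56.6 and 46.5 in KO IgG. The log2 difference was 0.59 (SE 0.26), with KO replicate 4 inside the WT range.

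The remaining subfamily holds Fzd4, the receptor for Norrin in retinal vessels, with Fzd9 and Fzd10. Fzd4 had 146, 140.4, 160.2 and 249.7 in WT and 243, 198, 234 and 214 in KO, and WT replicate 4 lay above all 4 KO libraries. Its log2 difference was 0.39 (SE 0.20, 95% interval -0.06 to 0.83). Fzd9 had 42.8, 62.2, 115 and 62.2 in WT and 127, 307, 137 and 73.3 in KO (log2 difference 1.08, SE 0.41). Fzd10 had 5.98, 18.8, 54.6 and 38.7 in WT and 29.0, 80.1, 98.2 and 67.7 in KO (log2 difference 1.44, SE 0.60). For both, the groups overlapped, and the estimate for Fzd10 rested on 6 to 130 reads per library.

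Blockade of the γδ TCR in KO tumors left most of the family within the spread between libraries. Among the 9 genes other than Fzd5, 7 were lower and 2 higher, with a median log2 difference of -0.18 against 0.02 over all 16481 genes. None of the 9 passed the test (limma, adjusted p from 0.190 to 0.884), and at an unadjusted p under 0.05 only Fzd1 was lower, where 9.0% of all genes were. No member stayed under that level without KO IgG replicate 3, blockade replicate 1 or blockade replicate 3, and 2 did without blockade replicate 2. limma called 0.0% of all genes (0 genes, with 3570 at an unadjusted p under 0.05), edgeR 0 and DESeq2 1036, none of them one of the 9. Without KO IgG replicate 4, limma called 2357 genes, again none of the 9. That fit leaves no KO IgG library with the pseudogene and Gm42418 shares of the blockade libraries, so blockade and those shares cannot be told apart. Groups did not overlap downward for Fzd1 alone of the 9, and for 4.98% of all genes.

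Fzd6 came next to Fzd1 in size. It had 306, 330.3, 309.7 and 263 normalized counts in KO IgG and 150.4, 319, 223 and 229 after blockade, so that 1 blockade library stayed near the top of the KO range (log2 difference -0.44, SE 0.22, 95% interval -0.92 to 0.05). Fzd2 and Fzd3 were the 2 with a higher mean. Fzd3 had 142, 179, 159.8 and 140.2 in KO IgG and 192, 177, 192 and 145 after blockade (log2 difference 0.18, 95% interval -0.20 to 0.56). Fzd2 went from 302 ± 78.1 to 312 ± 49.2 (SD, n = 4 each; 95% interval of the log2 difference -0.39 to 0.53). Fzd4, Fzd7, Fzd8, Fzd9 and Fzd10 had log2 differences of -0.38 to -0.11 with intervals that reach 0.

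IL-38 neutralization in WT mice gave wider spreads. Of the 9 genes other than Fzd5, 8 were higher, with a median log2 difference of 0.50 against 0.00 over all 16002 genes. None passed the test (limma, adjusted p from 0.425 to 0.990), and limma called 0.0% of all genes (0 genes, with 1682 at an unadjusted p under 0.05), edgeR 0 and DESeq2 75, none of them a Frizzled gene. At an unadjusted p under 0.05, 3 of the 9 were higher (Fzd1, Fzd3 and Fzd4), where 5.61% of all genes were. Without isotype replicate 5 or anti-IL-38 replicate 3, 1 of the 9 was, and the other single libraries left 2 to 4. No member's groups were apart, as for all but 0.4% of genes in the higher direction.

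Fzd1 showed the largest difference of the 10. Its isotype libraries had 55.7, 8.27, 99.8, 32.3 and 14.3 normalized counts, and the anti-IL-38 libraries ran from 56.6 over a median of 78.7 to 200.1. The log2 difference was 1.51 (SE 0.55), and the exact permutation test on the single gene gave a two-sided p of 0.0368, not adjusted for the 10 genes looked at. Fzd3 had 124, 181, 142, 179 and 109 in isotype and 162 to 305 (median 192) with anti-IL-38, with an exact permutation p of 0.0411. Fzd4 had 146, 153, 179, 220.2 and 166 in isotype and 120.3 to 474 (median 277) with anti-IL-38, with an exact permutation p of 0.0758. With any 1 of the 11 libraries left out, at most 1 of the 2 genes stayed under 0.05, and neither did without isotype replicate 5 or without anti-IL-38 replicate 2 or 6. In Fzd4, 5 of the 6 treated libraries lay above every isotype library and the other, replicate 6, lay below them all. Without it the Fzd4 difference went from 0.63 to 0.85. The exact permutation p of 0.0079 is then the lowest that 5 against 5 libraries can give. Removing the only library that went the other way fixed it, so it adds nothing to the 0.0758.

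Fzd2, Fzd6 and Fzd8 had log2 differences of 0.44 to 0.61, with exact permutation p of 0.165 to 0.195. Fzd7 differed by 0.02 (95% interval -0.66 to 0.71). Fzd9 and Fzd10 moved with single libraries. In isotype, Fzd9 had 38.7, 180.2, 99.8, 121 and 752 normalized counts and Fzd10 had 56.6, 29.4, 58.8, 38.7 and 0.953, so that the library with the most Fzd9 reads had 1 read of Fzd10. Without isotype replicate 5, the Fzd9 difference went from -0.04 to 0.55, and without isotype replicate 1 to -0.51. Without anti-IL-38 replicate 3, 5 or 6 it was -0.40, 0.33 or -0.37. Leaving out isotype replicate 5 also took the Fzd10 difference from 0.64 to -0.27. None of the 9 genes other than Fzd5 passed the test of the antibody effect against the knockout effect (differences of -1.12 to 0.48), and that test called 0.00612% of all genes with limma, again Gm10093 (1255 at an unadjusted p under 0.05; edgeR 0, DESeq2 22).

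**Figure D2:**
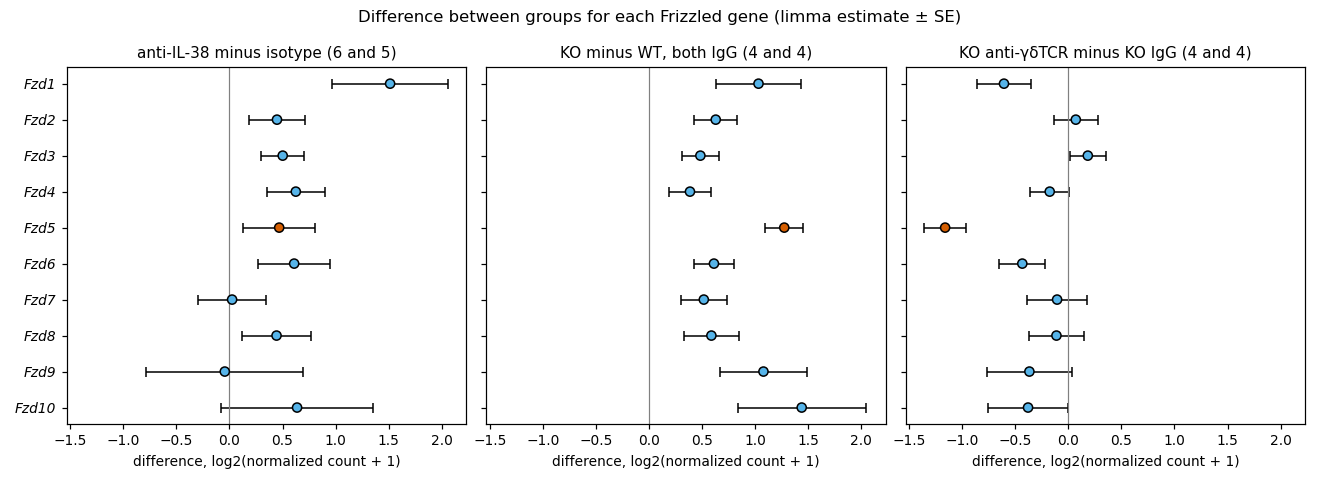
Differences in log2(normalized count + 1) with their standard errors (limma) for the 10 Frizzled genes in 3 comparisons, with Fzd5 in orange. In KO against WT all 10 points lie right of 0, from 0.39 for Fzd4 to 1.44 for Fzd10; after blockade Fzd5 lies at -1.16, apart from the other 9 at -0.61 to 0.18.

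The other genes of the pathway were taken from 8 lists by role, 72 genes in all. Of the 52 tested in KO against WT, 33 were higher and 19 lower and none passed the test across all genes. At an unadjusted p under 0.05, 10 were higher (6.73% of all genes were) and none lower (5.4% of all genes were). The co-receptor list held most of these, with 6 of 7 higher at that level and a list median of 0.73. They were Lrp5 (0.93, SE 0.28), Lrp6 (0.73, SE 0.19), Ror1 (0.79, SE 0.25), Ryk (0.49, SE 0.17), Ptk7 (1.06, SE 0.30) and the Norrin co-receptor Tspan12 (0.70, SE 0.21), all as log2 differences. Ror2, the Wnt5a receptor kinase, was the exception with -0.20 (SE 0.36).

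The turnover list came next, with Znrf3 and Lgr4 at that level of 6 tested. Lgr4, the R-spondin receptor found in mammary epithelium, had 186, 174, 282 and 271 normalized counts in WT IgG and 395, 402, 389.6 and 420.2 in KO IgG, with no overlap (log2 difference 0.84, SE 0.18, limma adjusted p = 0.210). In the table of 8 libraries it had 296, 305, 301 and 329 in KO IgG and 212, 224, 223 and 188 after blockade, again with no overlap (-0.54, SE 0.14, adjusted p = 0.066). Znrf3, the ligase that clears Frizzled proteins, had 156, 114, 220.2 and 196 in WT and 325, 342, 350.4 and 248 in KO (0.91, SE 0.22, adjusted p = 0.210). After blockade it had 137, 149, 163 and 145 against 244, 259, 271 and 194 in KO IgG (-0.69, SE 0.16, adjusted p = 0.066). Without KO IgG replicate 4, Znrf3 passed the limma test (adjusted p = 0.0069) and Lgr4 did not (adjusted p = 0.051). In that fit no KO IgG library has the pseudogene and Gm42418 shares of the blockade libraries. Blockade and those shares cannot be told apart there. Rnf43, the other ligase, differed by 0.40 (SE 0.25) in KO and by -0.09 (SE 0.20) after blockade.

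The ligands, transducers and nuclear factors of the pathway had medians near those of all genes in KO against WT, at 0.05, 0.01 and 0.12. In the target gene list, 7 of 8 tested were higher, with a median of 0.36. Only Znrf3, which is also on the turnover list, had an unadjusted p under 0.05 (limma) among them (6.73% of all genes were higher at that level). Wnt5a was higher by 0.49 (SE 0.19, unadjusted p = 0.026), Wnt4 differed by -0.59 (SE 0.33), Wnt7b by -0.15 (SE 0.36) and Wnt11 by 0.31 (SE 0.64), while 11 of the 20 ligands were too low to test. Ctnnb1, which encodes β-catenin, differed by 0.21 (SE 0.15), and the target gene Axin2 differed by 0.84 (SE 0.43). The secreted inhibitor Sfrp1 differed by 0.11 (SE 0.30) and Wif1 by 1.51 (SE 0.56, adjusted p = 0.335).

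After blockade, 28 of the 51 tested genes were higher and 23 lower, and none passed the test across all genes. The co-receptor list had a median of -0.26 and the ligand list one of 0.45. In the target gene list, 6 of 8 tested were lower, with a median of -0.25. At an unadjusted p under 0.05, 6 were higher, near the 12.7% of all genes that were. Among them were Wnt4 (1.20, SE 0.41), Ror2 (0.95, SE 0.30), Tcf7l2 (0.61, SE 0.18) and Bcl9l (0.83, SE 0.22). At that level 3 were lower (Znrf3, Lgr4 and Tspan12), fewer in proportion than the 9.0% of all genes that were. Without KO IgG replicate 4, 4 of the 51 passed (Znrf3 lower, Dkk3, Csnk1a1 and Bcl9l higher), fewer in proportion than the 14.3% of all genes called in that fit. Blockade and the read shares named above cannot be told apart in it. With anti-IL-38, 34 of 50 tested were higher, none passed, and 4 were higher at an unadjusted p under 0.05 (5.61% of all genes were), with Wnt4 the largest (2.3, SE 0.57, adjusted p = 0.373) beside Wnt7b, Lrp5 and Ptk7.

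**Figure D3:**
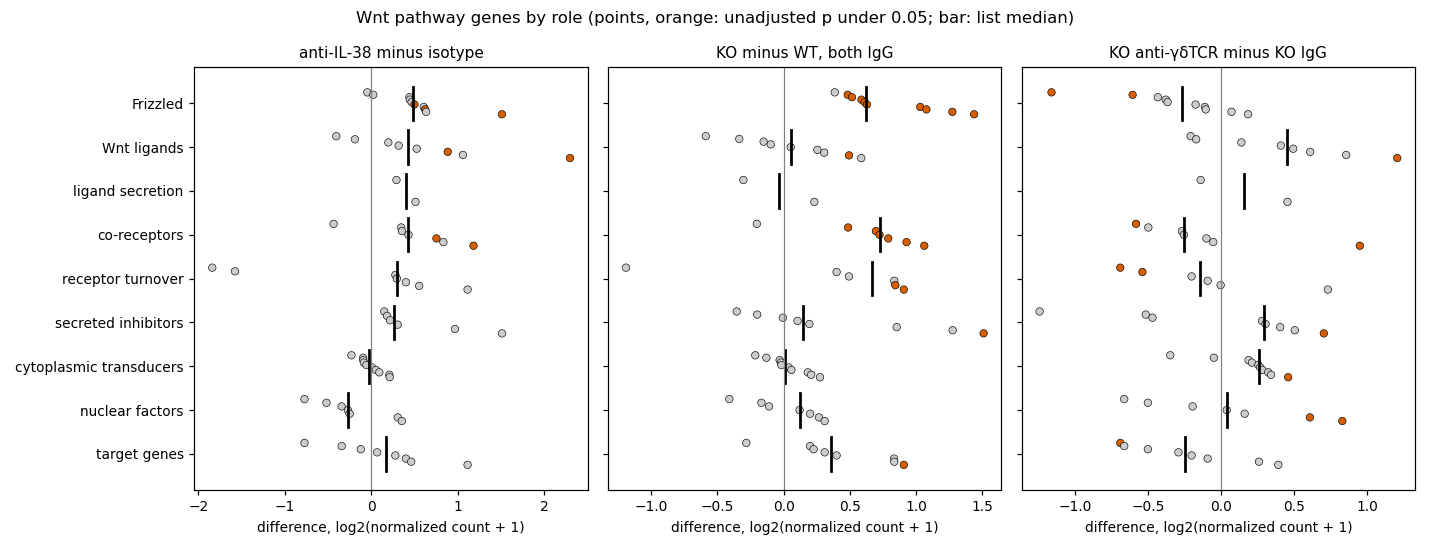
Differences in log2(normalized count + 1) for each tested gene of the Frizzled family and of 8 Wnt pathway lists in 3 comparisons (points, orange where the unadjusted p is under 0.05; the bar is the list's median). In KO against WT the Frizzled, co-receptor and turnover lists have medians of 0.62 (0.61 without Fzd5), 0.73 and 0.67, and the transducer list has 0.01. The colour of Fzd5 is no test in KO against WT or after blockade, the comparisons that chose it.

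Markers of the cell types in the tumor also differed in direction between groups, but with all libraries kept none passed the limma test across all genes. In KO against WT, all 10 macrophage markers and all 9 adipocyte markers were lower (list medians -0.45 and -1.11), 9 of 10 basal markers were lower (-0.39), and 10 of 11 T and NK cell markers were lower (-0.82), and all 10 skeletal muscle markers were higher (2.05). At an unadjusted p under 0.05 (limma), 4 macrophage, 5 adipocyte, 3 basal and 1 T and NK cell marker were lower (5.4% of all genes were). In the muscle list 3 were higher (6.73% of all genes were). Without KO IgG replicate 4, the macrophage median was -0.26, the adipocyte median -1.51 and the muscle median 3.04. The summed normalized count of the adipocyte list was 3800 to 5521 in WT and 705 to 3599 in KO, that of the macrophage list 27810 to 37046 and 15539 to 30170, and that of the T and NK cell list 221 to 532 and 138 to 419. That of the luminal list was 33748 to 45608 in WT and 43626 to 47274 in KO. In the table of 8 libraries, the macrophage list had 12169 to 23305 in KO IgG and 11237 to 15215 after blockade, with 7 of its 10 genes lower. The neutrophil list had 393 to 2870 and 85.0 to 360, with all 4 tested genes lower. The basal list had 3008 to 5502 and 3695 to 10615, with all 10 genes higher. The luminal list had 33700 to 36610 and 39262 to 41914, with 9 of its 12 genes higher. At an unadjusted p under 0.05 (limma), 5 macrophage and 1 neutrophil marker were lower after blockade (9.0% of all genes were). Higher at that level were 2 luminal, 3 basal, 1 T and NK cell and 1 macrophage marker (12.7% of all genes were). All 11 T and NK cell markers (list median 0.57) and all 10 skeletal muscle markers (1.23) were also higher after blockade. With anti-IL-38, all 12 luminal markers (0.48), all 11 T and NK cell markers (0.75) and 10 of 11 fibroblast markers (0.47) were higher. So were 8 of 10 basal (0.77), 10 of 12 endothelial (0.13), 6 of 9 adipocyte (0.43) and 9 of 10 muscle markers (0.36). The other way went 6 of 10 macrophage markers (-0.12) and all 5 tested neutrophil markers (-0.37). The Frizzled median there was 0.49. The luminal list summed to 24591 to 51881 in isotype and 38065 to 61032 with anti-IL-38, and the T and NK cell list to 44.8 to 372 and 142 to 385. Of the 7 neutrophil markers, Ly6g alone was at 0 in every library of the anti-IL-38 and of the blockade group. Only 5 of the 7 were high enough to test with anti-IL-38 and 4 after blockade, and a count of 0 is limited by counting error. The part of these shifts in the Frizzled differences was not tested.

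Across the 19 libraries of the first table, each Frizzled gene was compared with the mean log2 level of each of 9 marker lists (90 pairs, permutation tests with 100000 resamples, Benjamini-Hochberg adjusted). The permutations took no account of experiment or group, so shared differences between groups enter these values. No pair passed by both Pearson's r and Spearman's rho. For Fzd5 the strongest relation was with the basal list (r = -0.51, rho = -0.46, given without a test since the KO and WT values of Fzd5 chose it), at r = -0.59 within the 11 libraries of the neutralization experiment, -0.75 within the 8 of the γδ TCR experiment and -0.51 without the 2 libraries farthest from the median of the list. Fzd1 fell with the macrophage list (r = -0.59, rho = -0.74, adjusted p = 0.128 and 0.047), with r of -0.47 and -0.58 within the experiments and -0.57 without the farthest 2 libraries. Fzd9 fell with the basal list (r = -0.73, rho = -0.70, adjusted p = 0.0225 and 0.051), with r of -0.76 and -0.57 within the experiments and -0.77 without the farthest 2.

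Fzd4 and Fzd10 had their strongest rho with the luminal list (0.62 and 0.44, adjusted p = 0.133 and 0.431), and the r of Fzd10 went from 0.65 to 0.43 without the farthest 2 libraries, which included isotype replicate 5. Fzd2 had its strongest with the adipocyte list (rho = -0.51), Fzd3 with the endothelial (0.42), Fzd6 and Fzd7 with the macrophage (-0.45 and -0.31) and Fzd8 with the neutrophil list (-0.40), with adjusted p of 0.406 to 0.548. The strongest rho of the 10 members thus fell on 6 different lists, with the macrophage list the most frequent at 3 members.

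Within the family, 38 of 45 pairs had a positive r over the 19 libraries, with a median of 0.35. Fzd1 and Fzd6 were the pair most alike (r = 0.84, rho = 0.78, permutation adjusted p = 0.00045 and 0.011), and no other pair passed by both measures. Its r was 0.82 and 0.90 within the experiments and 0.76 without the 2 libraries farthest from the median of Fzd1. The permutations took no account of experiment or group, so differences between groups that both genes share enter these r and p. Fzd5 was nearest to Fzd2 (r = 0.56, rho = 0.57), Fzd3 (0.56 and 0.49) and Fzd9 (0.55 and 0.55), again without a test. Within the neutralization experiment these r were 0.45, 0.40 and 0.55. With its closest relative by sequence, Fzd8, it had r = 0.26, and with Fzd7 r = -0.09 (-0.48 and 0.59 within the experiments).

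**Figure D4:**
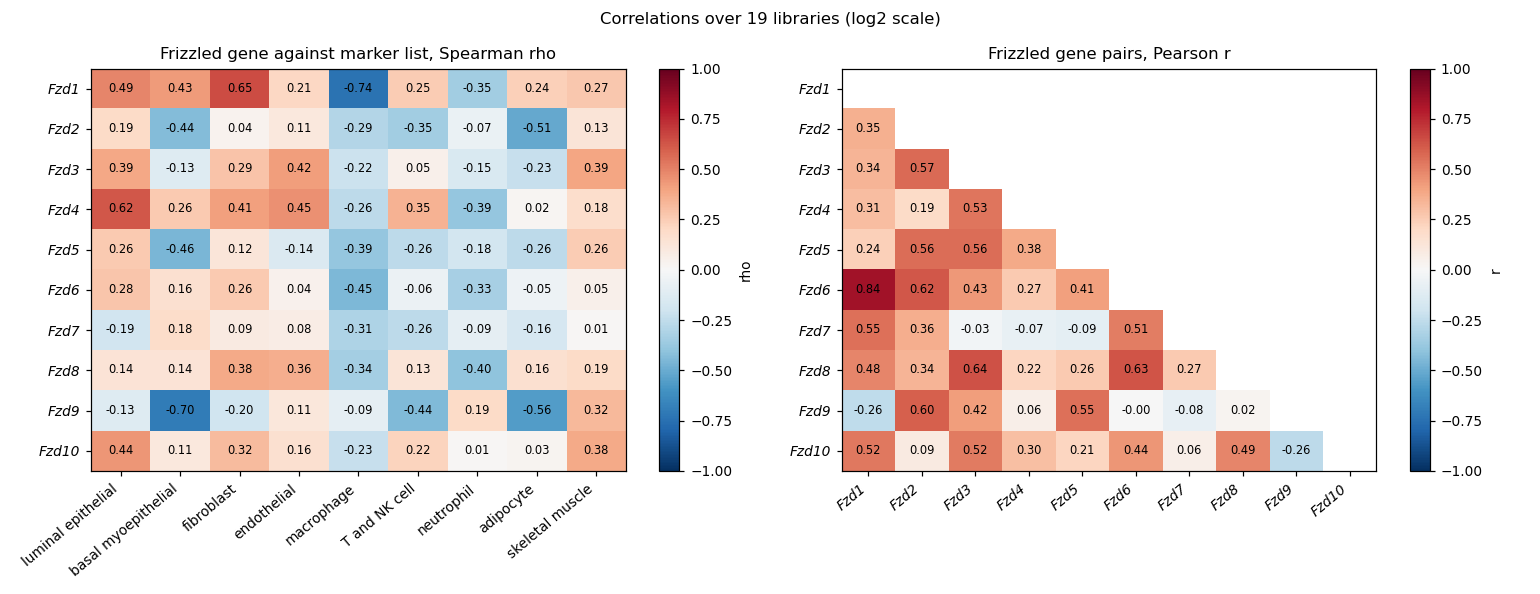
Left, Spearman's rho over 19 libraries between each Frizzled gene (rows) and the mean log2 level of each marker list (columns); right, Pearson's r between Frizzled genes (lower triangle). The deepest values are -0.74 for Fzd1 with macrophage markers, -0.70 for Fzd9 with basal markers and 0.84 for Fzd1 with Fzd6.

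The genes most like Fzd5 are given as a description. They are the top of a ranking of all genes, so that they exceed its family was fixed by the choice. The KO and WT values that chose Fzd5 also entered it. Among 13608 other genes whose mean reached 20 normalized counts, the 5 with the highest Pearson r over the 19 libraries were Cep68, a centrosome linker protein (0.87), Nid2, a basement membrane nidogen (0.87), Casd1, a sialic acid O-acetyltransferase (0.85), B3galt5, a galactosyltransferase (0.85), and Nectin3, a cell adhesion molecule (0.83). Without the 4 KO IgG libraries, r was 0.88, 0.82, 0.86, 0.87 and 0.75 over the remaining 15, which also entered the ranking. Their ranks there were 2, 17, 6, 3 and 71. The Frizzled gene ranked highest on this measure was Fzd2, at 353, then Fzd3 at 372 and Fzd9 at 404. In the table of 8 libraries, which did not enter this ranking but holds the same KO IgG reads, Nid2 had 107 ± 38.1 in KO IgG and 61.3 ± 14 after blockade (SD, n = 4 each). Casd1 had 390 ± 47.4 and 299 ± 31.5, B3galt5 93.7 ± 19.2 and 64.6 ± 31.3, and Nectin3 256 ± 26.4 and 195 ± 59.9. Only Cep68 had a higher mean after blockade, with 184 ± 15.6 and 202 ± 17.8.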

How the data were processed

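Tumor RNA libraries were made with a 3′ kit (QuantSeq FWD), and the submitters' processing notes name STAR, HTSeq, DESeq2 and the build GRCm39, without versions. The authors deposited 2 tables of a scaled signal per gene, whole read counts divided by 1 size factor per library; whole reads were recovered from them (tolerance 0.0001%) except in WT IgG replicate 1, where a read is worth almost the same as a rounded value. The reads of the 4 KO IgG libraries did not differ between the tables in any gene (0 genes). Symbols and chromosomes came from GENCODE M21 and promoters from RefSeq, both on GRCm38, so no coordinates of the files were used. 47224 of 47643 identifiers had a symbol.

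Differences were tested with limma 3.58.1 (trend, two-sided, R 4.3.3) on log2(normalized count + 1) for genes with a mean of at least 5, with Benjamini-Hochberg adjustment over all genes and a threshold of 0.05. edgeR 4.0.16 and DESeq2 1.42.0 on the recovered reads, other pseudocounts (0.5 and 5), other filters (none and 20), TMM rescaling, a replicate block and leaving out each library were alternatives, and scripts were tested on simulated data. Single genes were tested in the neutralization experiment by exact permutation of the 11 libraries. The members and all gene lists were chosen with earlier results of these data known. The genes named are the 10 members, 14 Wnt genes fixed by role (Wnt4, Wnt5a, Wnt7b, Wnt11, Lrp5, Lrp6, Ptk7, Rnf43, Znrf3, Lgr4, Sfrp1, Ctnnb1, Tcf7l2 and Axin2), any list gene that passed the test, and the 5 genes most like Fzd5; Ror1, Ror2, Ryk, Tspan12, Wif1, Dkk3, Csnk1a1 and Bcl9l were named after their values were seen. Reads behind each member ran from 1 (Fzd10) to 789 (Fzd9) per library, and counts carry no molecular identifiers, so the limit given for a count of 0 covers counting error only. Gm38058 on the other strand overlaps Fzd5 and had 0 to 3 reads.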

Additional observations from a re-analysis of the deposited data

Results flagged for a closer look

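Each member was searched for a library far from the others of its group, in groups of 4 to 6 libraries, with gaps and ranges taken on the log2(normalized count + 1) scale. Of 60 groups searched, 3 held such a library, where chance gives about 1 in 20. Fzd5 in blockade replicate 4 was at 168 normalized counts, with the nearest of the other 3 libraries at 130.5, a gap of 0.901 of the group's range against a critical value of 0.829. It was still below the lowest KO IgG library, at 219.8. Fzd10 in isotype replicate 5 was at 0.953, which is 1 read, with the next library at 29.4 (gap 0.802 of the range, critical value 0.71). Fzd6 in WT IgG replicate 2 was at 175, with the next at 283 (gap 0.855 of the range).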

How the results depend on the processing

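Of 537 differences of the 10 members recomputed under the alternatives, 521 kept their direction and 16 reversed, all in genes with small or 1-library differences. The Fzd5 difference kept its direction in each: 0.21 to 0.63 with single libraries left out for anti-IL-38, 1.19 to 1.43 for KO and -1.33 to -1.07 for blockade. The reversals were Fzd7 with anti-IL-38 (-0.20 to 0.18 with 1 library left out), Fzd9 with anti-IL-38 (-0.51 to 0.55), Fzd10 with anti-IL-38 (-0.27 to 0.96), Fzd2 after blockade (-0.0687 to 0.19) and Fzd7 after blockade (-0.29 to 0.13). The number of genes called over the whole table moved more. DESeq2 called 75 genes for anti-IL-38, 305 for KO, 1036 for blockade and 22 for the difference of effects, and edgeR called 0 in each. With single libraries left out, limma called 0 to 6 genes for anti-IL-38 (6 without isotype replicate 3), 0 to 7 for KO (7 without WT IgG replicate 3 or KO IgG replicate 4), 0 to 2357 for blockade (2357 without KO IgG replicate 4) and 0 to 2 for the difference of effects. Fzd5 is left out of this count, because the KO and blockade comparisons chose it, and no other member was called under any of these. The exact tests that put 2 members under 0.05 put 0 to 1 there with a library left out. Without anti-IL-38 replicate 6 that 1 was Fzd4, whose p the removal itself fixed at its lowest value. The 1 pair of a member and a marker list that passed by rho became 0 with a pseudocount of 5, 2 with TMM rescaling and 0 without KO IgG replicate 4. The alternatives for the exact tests and for the counts of members at an unadjusted p were chosen after seeing the data. The cause of these changes was not tested.

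Same-numbered libraries did not deviate together (correlations of -0.17 to 0.07), so the numbers do not pair them. With the replicate block, limma called 1 gene for anti-IL-38, 0 for KO, 0 for blockade and 0 for the difference of effects, Fzd5 differed by 0.48 with anti-IL-38, and Fzd7 there went to -0.0292.

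By median reads per library, depth limits Fzd10 (38) and Fzd8 (40) most, and Fzd1 had 1 and Fzd10 2 libraries under 10 reads. With 4 libraries a group, the 95% interval of a log2 difference between KO and WT ran from 0.10 to 0.87 for Fzd3, the narrowest of the 9, and from 0.11 to 2.77 for Fzd10, the widest.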
